A study of Mus musculus with 4 samples.

Results

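Chemokines are small secreted proteins that bind receptors on leukocytes and guide them along gradients into a tissue. They are grouped by the spacing of their first cysteines into CC, CXC, CX3C and XC families, and most are paired with a few receptors, such as CXCL9 and CXCL10 with CXCR3 on activated T cells and CCL2 and CCL12 with CCR2 on monocytes. In the wall of an injured artery they are made by macrophages, smooth muscle cells, fibroblasts, endothelium and the leukocytes that they draw in.

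The chemokine ligand genes were taken as every array probe that was not a control and whose gene name began with Ccl or Cxcl and a number, or was Cx3cl1, Xcl1, Pf4 or Ppbp. This gave 38 gene names of the 37074 on the array, carried by 52 probes, and 11 names had several probes. A gene entered the comparison where any of its probes was flagged well above background on 2 or more arrays, and the brightest such probe stood for it. Of the 38 chemokine genes, 27 entered, among 22498 genes in all. Of all 38, 22 were above background on all 4 arrays, 4 on 3 arrays, 1 on 2 arrays, 6 on 1 array and 5 on none.

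The RNA came from abdominal aortas of male mice, 12 weeks old, collected 4 weeks after CaPO4, a salt that is laid on the vessel in mouse models to injure it and bring on an aneurysm. Wild type mice gave arrays W2 and W3 (replicates 1 and 2), and mice labelled SR-A1-/-, which should lack the macrophage scavenger receptor encoded by Msr1, gave arrays K4 and K5 (replicates 1 and 2). Both groups received CaPO4, so no array here shows the level of a chemokine without it, and the labels name neither the strain nor the allele. Whether the arrays of a group came from separate animals is not stated either, and the p-values then measure no more than the spread between these 4 samples, which may be technical. In processed signal, the 75th percentile stood at 132 on W2 and 133 on K5, and 220 on W3 and 245 on K4, and 57.6% to 62.6% of the probes were well above background.

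Msr1 itself went against the labels. Its probe at base 3231 of NM_031195 read -5.30 on W2, -2.10 on W3, -1.26 on K4 and -2.09 on K5 as log2 signal minus that of the array's 75th percentile. At base 624 the readings were -6.40, -2.13, -1.50 and -1.38. Both probes were well above background on W3, K4 and K5 and not on W2. Where the deletion lies is not given in the sources used here, and probes outside it are no check of the labels. The groups are therefore named by their labels, and each direction holds for the labels only.

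Throughout, a level is the log2 processed signal of a probe minus the 75th percentile of its array, and a difference is the mean of the arrays labelled SR-A1-/- minus the mean of the wild type arrays, with the limma standard error. Levels are compared between arrays and never between probes. In tissue RNA, fewer cells of a type and less RNA per cell cannot be told apart.

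As a group, the chemokine genes read higher on the arrays labelled SR-A1-/-, and no single gene passed the adjusted test. Of the 27 genes, 23 had a positive difference, against 11087 of the 22498 genes in all. The 23 include Ccl1, which entered the comparison through the arrays labelled SR-A1-/- only. The median difference of the 27 genes was 0.98 against -0.01 over all genes tested. In limma with Benjamini-Hochberg adjustment 0 of the 27 passed an adjusted p of 0.05, as did 0% of the 22498 genes, the smallest adjusted p of any gene being 0.0538. At an unadjusted p under 0.05, 8 chemokine genes were higher, where the share over all genes was 3.84%, and 0 were lower, where it was 2.45%. Both arrays labelled SR-A1-/- lay above both wild type arrays for 10 chemokine genes, against 16.1% of all genes, and below both for 0, against 13.7%. With at least a 2-fold difference as well, 9 chemokine genes were higher, against 3.96% of all genes, and 0 were lower, against 2.44%. With 2 arrays against 2, an exact permutation test of a single value cannot give a p below 1 in 3.

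The median depended on which wild type array was used. It was 0.16 without W2 and 1.81 without W3, 0.94 without K4 and 1.04 without K5. The direction of single genes also turned: without W2 the difference changed sign for 8 of the 27 genes. Array W2 was the lowest of the 4 arrays for 16 of the 27 chemokine genes, a position it held for 21.7% of all genes. Between the arrays of high signal, K4 minus W3, the median was 0.47 with 16 of 27 positive, and between those of low signal, K5 minus W2, it was 1.75 with 22 positive, where the medians over all genes were 0.01 and -0.03. Between the wild type arrays, W3 minus W2, it was 0.55.

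**Figure D1:**
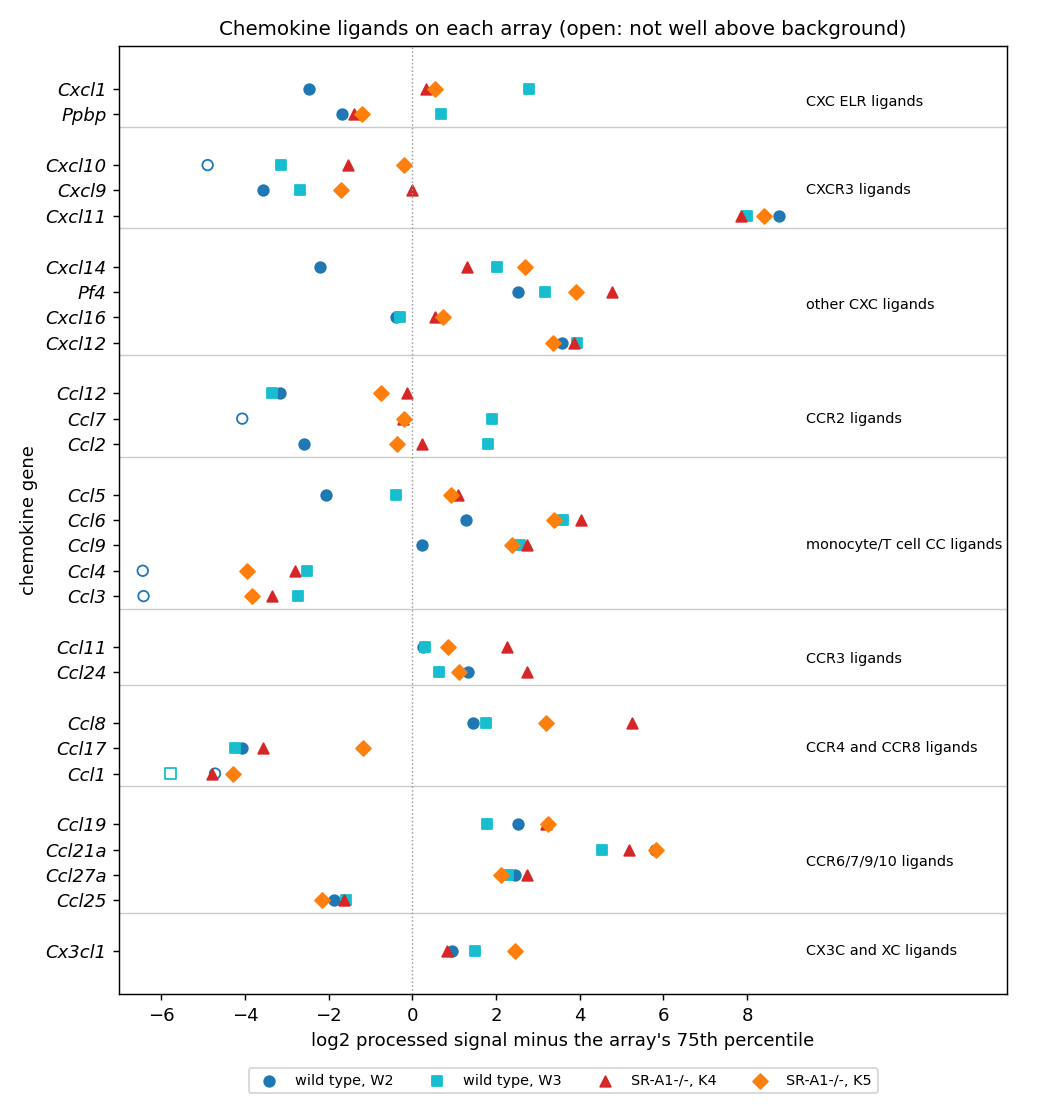
Level of the 27 tested chemokine genes on each of the 4 arrays, as log2 processed signal minus the array's 75th percentile, grouped by the receptor or cell type that the ligand is known for. Open symbols mark probes not well above background on that array, which include Cxcl10, Ccl7, Ccl3 and Ccl4 on W2. Both SR-A1-/- symbols lie right of both wild type symbols for 10 genes, and W3 lies far right of the other arrays for Cxcl1, Ppbp, Ccl2 and Ccl7.

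The interferon-induced CXCR3 ligands Cxcl10 and Cxcl9, which draw activated T cells and NK cells, were among the largest differences. The probe of Cxcl10, at base 924 of NM_021274 (chromosome 5, 92775781 to 92775840, mm9), read -4.89 on W2, -3.14 on W3, -1.53 on K4 and -0.21 on K5. Both arrays labelled SR-A1-/- were above both wild type arrays, and W2 was not well above background. The difference was 3.15 ± 0.75 (8.86-fold, limma adjusted p = 0.485), or 2.83 (7.12-fold) with W2 raised to the lowest signal called above background. With normexp background correction it was 1.0, without W2 it was 2.27 and without W3 4.02. A dimmer probe of Cxcl10, at base 1230 of AK156907, was above background on K5 only.

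Cxcl9 read -3.58 on W2, -2.68 on W3, -0.004 on K4 and -1.70 on K5, all above background. The groups did not overlap, with K4 the highest for Cxcl9 where K5 was the highest for Cxcl10. The difference was 2.28 ± 0.67 (4.84-fold, limma adjusted p = 0.625), and 1.12 with normexp background correction.

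The bases before the start of Cxcl10 are shown because this gene had the largest difference and is a standard example of joint control by interferon and NF-kB factors. The sequence is from the RefSeq promoter table (GRCm38.p6, chr5:92348890-92349139, minus strand), and the capitals mark, in order, a match to the core of the interferon-stimulated response element (GAAA, any 2 bases, GAAA) and 2 matches to the NF-kB motif.
Cxcl10: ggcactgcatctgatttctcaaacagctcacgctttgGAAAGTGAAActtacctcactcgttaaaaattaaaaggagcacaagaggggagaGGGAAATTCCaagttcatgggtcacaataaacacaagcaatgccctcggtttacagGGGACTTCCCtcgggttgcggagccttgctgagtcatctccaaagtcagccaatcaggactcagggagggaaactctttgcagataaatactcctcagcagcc

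The matches begin 213, 159 and 103 bases before the start. Searched on both strands over 250 bases before and 50 after each start, the interferon core was found in 3.44% of 32851 windows. Among the 27 chemokine genes with a promoter in the table, tested or not, it was found in Cxcl10, Cxcl14 and Ccl19. The GAS motif TTCNNNGAA, the gamma-activated site, was in 8.3% of windows and in Ccl17 and Cxcl14. The motifs can overlap each other, and a match describes the letters only. Cxcl9 held none of the 3 motifs in this window, whose last 120 bases before the start are given for comparison (chr5:92328080-92328199, minus strand).
Cxcl9: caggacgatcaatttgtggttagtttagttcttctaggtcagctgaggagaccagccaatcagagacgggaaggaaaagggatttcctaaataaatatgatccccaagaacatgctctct

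Cxcl11, the remaining ligand of CXCR3 and a neighbour of Cxcl9 and Cxcl10, did not share their pattern. Its tested probe, at base 1530 of NM_019494, read 8.76 on W2, 7.99 on W3, 7.85 on K4 and 8.41 on K5. The groups overlapped, with a difference of -0.25 ± 0.41. Its sign turned without W2 (0.14) and without K4 (0.03). The probe shared at least 1 stretch of 20 bases with 8 probes of other gene names, all 8 above background on every array, at a median level of 7.62. One such stretch, printed because it bears on what the probe reads, lay at bases 24 to 43 of the probe and in 6 other probes.
Cxcl11 probe, shared stretch: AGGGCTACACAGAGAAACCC
These letters, all in capitals as shared, belong to the B1 repeat, a short interspersed element of the mouse genome. The second Cxcl11 probe, at base 1457, shared a stretch with 1 other probe and read 3.84, 3.18, 2.99 and 3.46, also with groups that overlapped. How far either reading comes from Cxcl11 RNA was not tested. No other tested chemokine probe shared a stretch of 20 bases with a probe of another name, and without Cxcl11 the median of the remaining genes was 1.03.

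Of the ligands of CCR2, the receptor that brings inflammatory monocytes out of the blood, Ccl12 had the smallest adjusted p of the chemokine genes. Its probe, at base 345 of NM_011331 (chromosome 11, 81916710 to 81916769, mm9), read -3.16 on W2, -3.36 on W3, -0.12 on K4 and -0.75 on K5. Each group lay within 0.64 log2 units, and the groups did not overlap. The difference was 2.82 ± 0.34 (7.08-fold, limma adjusted p = 0.177). Its adjusted p ranged from 0.165 to 0.32 over the alternatives that kept all arrays, and the difference was 1.33 with normexp background correction. Without W2 it was 2.92 and without W3 2.72, and in these fits the single wild type array left has no spread of its own. Without K4 it was 2.51 and without K5 3.14.

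Ccl2 and Ccl7, which share CCR2 with Ccl12, were singled out after their values were seen because the wild type arrays disagreed. Ccl2 read -2.60 on W2, 1.81 on W3, 0.23 on K4 and -0.38 on K5, a difference of 0.32 ± 1.44. Ccl7 read -4.06, 1.89, -0.23 and -0.20, with W2 not above background, a difference of 0.87 ± 1.91. In both genes the wild type arrays were the lowest and the highest, and the arrays labelled SR-A1-/- lay between them. The median of the 3 CCR2 ligands was 0.87, with -1.88 without W2, 2.72 without W3 and -0.16 with normexp background correction.

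The promoter of Ccl12 is shown beside that of its neighbour Ccl8, the genes of this chromosome 11 group with the largest differences. Neither held any of the 3 motifs within the window searched, and both sequences are the 120 bases before the start on the plus strand (GRCm38.p6, chr11:82101725-82101844 and chr11:82115065-82115184).
Ccl12: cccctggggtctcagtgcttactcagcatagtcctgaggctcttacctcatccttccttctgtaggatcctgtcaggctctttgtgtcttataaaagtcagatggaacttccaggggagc
Ccl8: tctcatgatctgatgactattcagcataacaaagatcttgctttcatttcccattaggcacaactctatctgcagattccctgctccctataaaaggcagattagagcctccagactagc

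The CC ligands Ccl3, Ccl4, Ccl5, Ccl6 and Ccl9, which draw monocytes, macrophages and T cells, had a median difference of 1.16 over 5 genes, and only Ccl5 among them had groups that did not overlap. Ccl5, also called RANTES and made by T cells and macrophages, read -2.07 on W2, -0.40 on W3, 1.08 on K4 and 0.92 on K5. Both arrays labelled SR-A1-/- were above both wild type arrays, which themselves lay 1.67 apart. The difference was 2.23 ± 0.60 (4.70-fold, limma adjusted p = 0.582, range over the alternatives that kept all arrays 0.257 to 0.69). Without W3 it was 3.07 and without W2 1.40. Without K4 it was 2.15 and without K5 2.31.

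Ccl6 and Ccl9, neighbouring genes found in rodents and expressed by myeloid cells, were low on W2 alone. Ccl6 read 1.27 on W2, 3.60 on W3, 4.04 on K4 and 3.38 on K5, a difference of 1.28 ± 0.82. Ccl9 read 0.23, 2.58, 2.75 and 2.39, a difference of 1.16 ± 0.80. Apart from W2, the arrays of Ccl9 lay within 0.36 log2 units, and without W2 its difference was -0.01, against 2.34 without W3. For Ccl6 the difference was 0.11 without W2 and 2.44 without W3. Over the alternatives that kept all arrays, the limma adjusted p ranged from 0.529 to 1 for Ccl9 and from 0.44 to 1 for Ccl6.

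Ccl3 and Ccl4, the macrophage inflammatory proteins, were not above background on W2. Ccl3 read -6.42 on W2, -2.73 on W3, -3.36 on K4 and -3.84 on K5, a difference of 0.97 ± 1.22. Ccl4 read -6.44, -2.51, -2.81 and -3.94, a difference of 1.10 ± 1.33. W3 was the highest array for both genes. With W2 raised to the lowest signal called above background, the differences were -0.11 for Ccl3 and 0.01 for Ccl4.

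**Figure D2:**
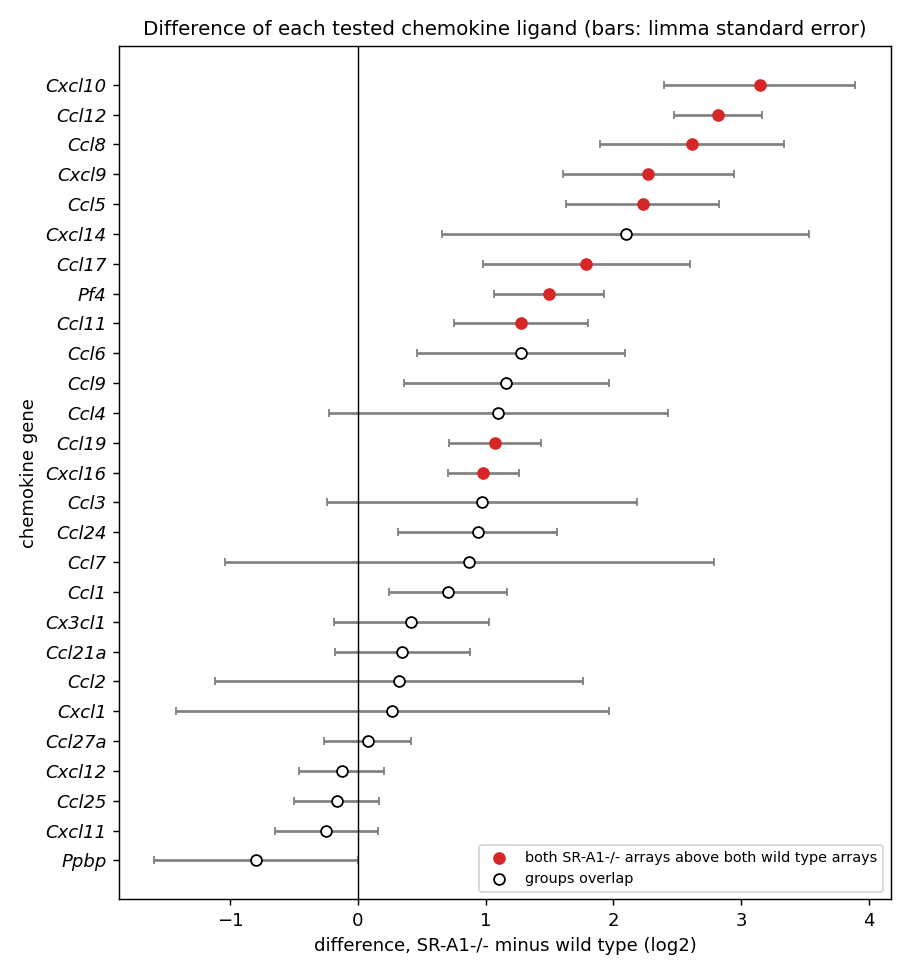
Difference between the arrays labelled SR-A1-/- and wild type for the 27 tested chemokine genes, in log2 units, with the limma standard error (n = 2 arrays in each group) as bars. The 10 filled genes, from Cxcl10 at 3.15 to Cxcl16 at 0.98, had groups that did not overlap, and only Ccl25, Cxcl12, Cxcl11 and Ppbp lay below 0.

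Ccl8 and the CCR3 ligands were highest on K4. Ccl8, which in the mouse acts through CCR8 on type 2 helper T cells, read 1.44 on W2, 1.77 on W3, 5.25 on K4 and 3.19 on K5. The wild type arrays lay 0.33 apart and the arrays labelled SR-A1-/- 2.07 apart, and the groups did not overlap. The difference was 2.62 ± 0.72 (6.13-fold, limma adjusted p = 0.589), and it stayed between 2.49 and 2.69 over the alternatives that kept all arrays. It was 1.58 without K4 and 3.65 without K5.

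Ccl11, eotaxin, which draws eosinophils through CCR3, read 0.24 on W2, 0.30 on W3, 2.26 on K4 and 0.85 on K5. The wild type arrays were nearly level and both others were higher. The difference was 1.28 ± 0.52 (2.43-fold, limma adjusted p = 0.818), with 0.57 without K4 and 1.99 without K5. The other eotaxin tested, Ccl24, read 1.33, 0.63, 2.73 and 1.11, so that K5 lay between the wild type arrays and the groups overlapped, with a difference of 0.94 ± 0.62.

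Ccl17, a ligand of CCR4 made by dendritic cells and macrophages, stood out on K5. It read -4.07 on W2, -4.25 on W3, -3.56 on K4 and -1.17 on K5. K4 was above the wild type arrays by far less than K5, and the groups did not overlap. The difference was 1.79 ± 0.81 (3.45-fold, limma adjusted p = 0.875), 0.49 with normexp background correction, 2.98 without K4 and 0.59 without K5. Ccl1, the classical CCR8 ligand, was above background on K4 and K5 and on neither wild type array. Its levels were -4.71, -5.78, -4.79 and -4.29, so that K4 was below W2. Both K4 and K5 read under the lowest signal called above background on W2 (-4.26). Because Ccl1 entered the comparison through K4 and K5 only, no direction is drawn for it. A second Ccl1 probe, at base 445 of NM_011329, was above background on no array.

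The homeostatic ligands of CCR7, which lead dendritic cells and naive T cells to lymph nodes, differed from one another. Ccl19 read 2.51 on W2, 1.77 on W3, 3.19 on K4 and 3.25 on K5. Both arrays labelled SR-A1-/- were above both wild type arrays, with a difference of 1.08 ± 0.36 (2.11-fold, limma adjusted p = 0.702). Ccl21a, made by lymphatic endothelium and lymph node stroma, read 5.79, 4.52, 5.18 and 5.83. Here W2 and K5 were level and W3 was the lowest, a difference of 0.35 ± 0.53 that was -0.29 without W3. The probes of Ccl21a and Ccl27a each list 4 RefSeq transcripts, so near-identical copies of these genes could share the reading.

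Lymphatic endothelial markers, measured beside Ccl21a, had W3 as the lowest array in their summed linear level, at 9.25 against 11.4 on W2, 9.71 on K4 and 13.2 on K5. Prox1, Flt4 and Reln were lowest on W3, but Lyve1 was lowest on W2 (0.72) and Pdpn on K4 (2.14). All 5 of them were tested and their part in the Ccl21a values was not tested. Ccl27a, an epithelial ligand of CCR10, read 2.44, 2.28, 2.75 and 2.13, a difference of 0.08 ± 0.34. Its groups overlapped, as did those of Ccl25, a ligand of CCR9, whose difference was -0.17 ± 0.33.

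Among CXC ligands outside the CXCR2 and CXCR3 groups, Pf4 and Cxcl16 had groups that did not overlap. Pf4, platelet factor 4, is stored in platelet granules and is also expressed by macrophages. It read 2.54 on W2, 3.16 on W3, 4.77 on K4 and 3.92 on K5. Both arrays labelled SR-A1-/- were higher, with a difference of 1.50 ± 0.43 (2.82-fold, limma adjusted p = 0.620) that stayed between 1.45 and 1.58 over the alternatives that kept all arrays.

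Platelet and megakaryocyte markers were measured beside Pf4, and their part in its values was not tested. Of 7 such markers 5 were tested, with a median difference of -0.18, and Gp1ba and Gp5 were above background on fewer than 2 arrays. Without overlap, 0 were higher and 1 was lower (Gp9, at -0.98 ± 0.34), against 16.1% and 13.7% of all genes. Their summed linear level was 0.70 and 0.89 on the wild type arrays and 0.69 and 0.73 on the others. Ppbp, the platelet gene beside Pf4, read -1.67 on W2, 0.68 on W3, -1.39 on K4 and -1.19 on K5, a difference of -0.80 ± 0.80 in which W3 alone was high.

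Cxcl16, a membrane-bound ligand of CXCR6 that also binds oxidised lipoprotein, was singled out after its values were seen because its groups did not overlap. It read -0.38 on W2, -0.29 on W3, 0.55 on K4 and 0.74 on K5, a difference of 0.98 ± 0.28 (1.98-fold, limma adjusted p = 0.610). A second probe, at base 853, read -0.14, -2.39, -0.77 and 0.51, so that the groups overlapped there, although its difference of 1.13 had the same sign.

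Cxcl14, made by fibroblasts and epithelium, read -2.21 on W2, 2.01 on W3, 1.31 on K4 and 2.70 on K5. W2 stood far below the other arrays and the groups overlapped, with a difference of 2.10 ± 1.44. Without W2 the difference was -0.01, and without W3 it was 4.21. The limma adjusted p of Cxcl14 ranged from 0.666 to 1 over the alternatives that kept all arrays. Cxcl12, the stromal ligand of CXCR4, read 3.57, 3.92, 3.87 and 3.37, a difference of -0.13 ± 0.33 with groups that overlapped. A second Cxcl12 probe, at base 1816 of NM_021704, read 2.086 on W2, 2.795 on W3, 3.16 on K4 and 2.95 on K5. Its groups did not overlap, with a difference of 0.61, and the mean of both probes differed by 0.24.

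The neutrophil attractants of the CXCR2 group, with the monocyte attractants Ccl2 and Ccl7, were highest on W3, a pattern described after the values were seen. Cxcl1 read -2.47 on W2, 2.79 on W3, 0.32 on K4 and 0.55 on K5, a difference of 0.27 ± 1.70. Without W2 the difference was -2.36 and without W3 it was 2.90, with 0.39 without K4 and 0.15 without K5. Cxcl5 and Cxcl3 were above background on W3 alone, where they read -2.02 and -2.65, and did not enter the comparison. W3 exceeded the highest other array by 3.82 for Cxcl3, 3.31 for Cxcl5, 2.24 for Cxcl1, 2.09 for Ccl7, 1.87 for Ppbp and 1.58 for Ccl2. Cxcl2, which also binds CXCR2, was above background on K4 alone.

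Neutrophil markers and cytokines were measured beside this pattern. Of 6 neutrophil markers 5 were tested, with Retnlg above background on fewer than 2 arrays, and their summed linear level was 0.77 on W2, 4.70 on W3, 2.04 on K4 and 2.49 on K5. S100a9 read -2.83, 1.64, -1.33 and -2.50 and S100a8 -4.48, -0.38, -2.99 and -3.16, both highest on W3, whereas Ly6g read -4.67, -1.56, 0.03 and 0.73, highest on K5. Mpo read -4.328, -3.292, -3.517 and -3.891, highest on W3, and Elane -1.005, -1.368, -1.314 and -1.067, lowest on W3. The cytokine Il6 read -6.45, -0.41, -4.30 and -2.77 and Il1b -6.42, -1.62, -4.76 and -3.01, again highest on W3. Tnf read -3.584, -3.276, -3.982 and -3.53, highest on W3, and Il13 -4.045, -4.627, -4.851 and -4.336, highest on W2. The part of neutrophils or of these cytokines in the chemokine values was not tested.

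The starts of Cxcl1, Cxcl3 and Cxcl2 are printed because these neighbouring genes carry the same letters at the NF-kB motif. Each sequence is the 120 bases before the start on the plus strand of chromosome 5 (GRCm38.p6, chr5:90891125-90891244, chr5:90785981-90786100 and chr5:90903779-90903898), with the NF-kB matches in capitals.
Cxcl1: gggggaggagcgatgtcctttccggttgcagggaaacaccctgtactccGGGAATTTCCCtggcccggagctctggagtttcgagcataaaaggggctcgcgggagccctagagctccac
Cxcl3: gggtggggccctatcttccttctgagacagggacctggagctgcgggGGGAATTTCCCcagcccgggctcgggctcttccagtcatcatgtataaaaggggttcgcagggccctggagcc
Cxcl2: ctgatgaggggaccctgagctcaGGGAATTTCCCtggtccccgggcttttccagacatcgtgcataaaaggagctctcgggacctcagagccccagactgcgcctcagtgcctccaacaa

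In each of the 3, matches on both strands overlap in 1 run of capitals, which begins 71 bases before the start of Cxcl1, 73 before that of Cxcl3 and 97 before that of Cxcl2. The motif was in 4.51% of all windows and in 7 of the 27 chemokine genes with a promoter in the table, the others being Ccl20, Ccl27a, Ccl9 and Cxcl10. Cxcl1 and Cxcl3 were highest on W3, and Cxcl2 was above background on K4 alone. That Cxcl2 reading, -4.79, lay under the lowest signal called above background on W2 (-4.26) and on K5 (-4.49), where the same signal would not have been called.

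**Figure D3:**
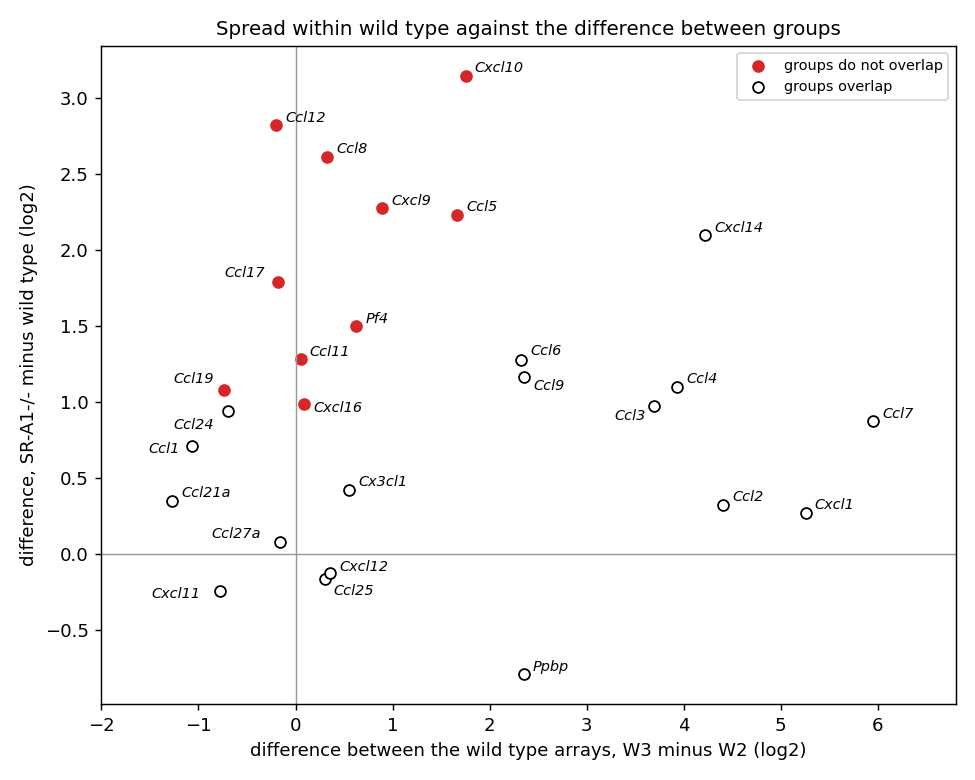
Difference between the wild type arrays, W3 minus W2 (horizontal, log2), against the difference between the arrays labelled SR-A1-/- and wild type (vertical, log2) for the 27 tested chemokine genes. The 10 filled genes, whose groups did not overlap, had wild type arrays at most 1.75 apart, whereas Cxcl1, Ccl2, Ccl7 and Cxcl14 lie to the right with wild type arrays 4.22 to 5.96 apart.

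Fractalkine, Cx3cl1, a membrane-bound ligand of endothelium and smooth muscle for CX3CR1, read 0.95 on W2, 1.50 on W3, 0.83 on K4 and 2.46 on K5. The arrays labelled SR-A1-/- were the lowest and the highest, with a difference of 0.42 ± 0.61. The lymphotactin gene Xcl1, made by NK cells and CD8 T cells, was above background on K4 alone, as was Cxcl13, which draws B cells, while Cxcl17 was above background on W2 alone. Ccl20, Ccl22, Ccl26, Ccl28 and Cxcl15 were not above background on any array. For these genes the arrays give only a bound.

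Neighbouring chemokine genes did not all share 1 pattern across the arrays. In the chromosome 11 group from Ccl2 to Ccl1 (6 genes over 140 kb by their probes on mm9), Ccl11, Ccl12 and Ccl8 were higher in both K4 minus W3 and K5 minus W2. Ccl1 is not counted with them, because it entered the comparison through K4 and K5 only and neither wild type array was above background. Ccl2 and Ccl7, next to each other at its end, differed by -1.58 and -2.12 in K4 minus W3 and by 2.22 and 3.87 in K5 minus W2. In the second chromosome 11 group, from Ccl5 to Ccl4 (5 genes over 139 kb), all 5 were higher in K5 minus W2, and Ccl5, Ccl9 and Ccl6 in K4 minus W3. Pf4 was higher in both, at 1.61 and 1.38, while Ppbp beside it differed by -2.07 and 0.48.

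**Figure D4:**
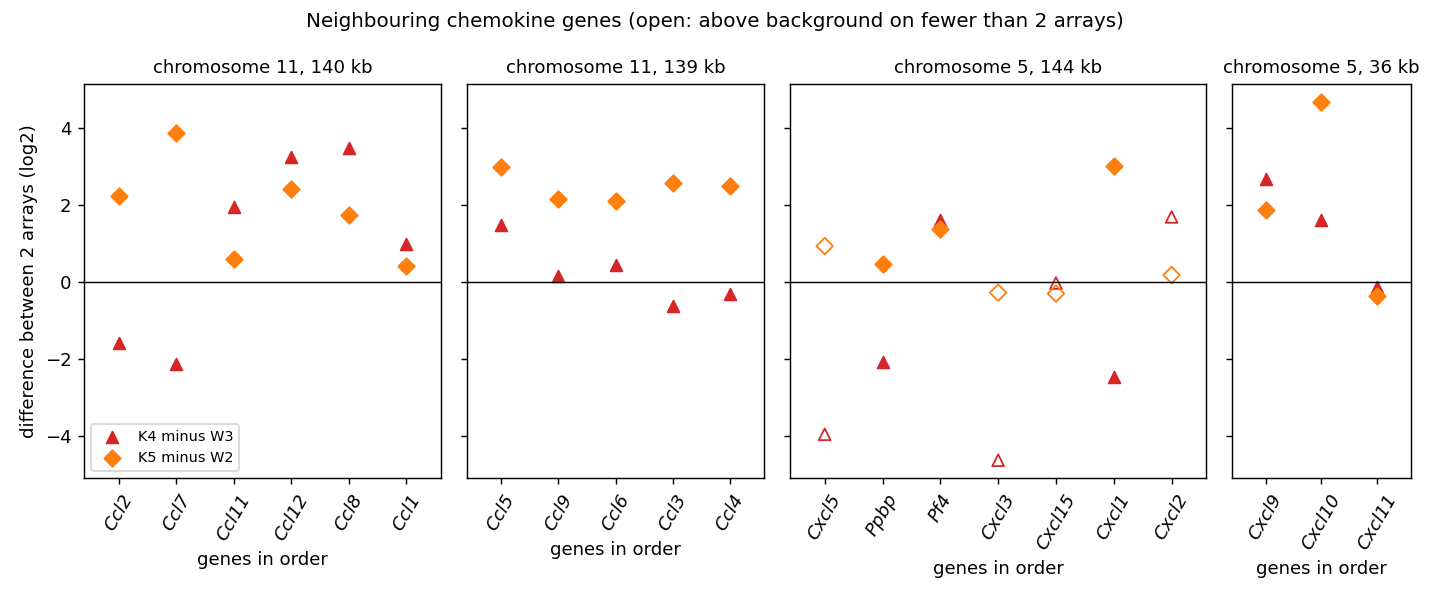
Differences between arrays of like signal level, K4 minus W3 and K5 minus W2 (log2), for neighbouring chemokine genes in their order along mouse chromosomes 11 and 5, with the span of each group in its title. Open symbols mark genes above background on fewer than 2 arrays. Both symbols lie above 0 for Ccl12, Ccl8, Ccl11, Ccl5, Ccl9, Ccl6, Pf4, Cxcl9 and Cxcl10. They do so too for Ccl1, which entered through K4 and K5 only, and for Cxcl2, with open symbols. The symbols lie on opposite sides of 0 for Ccl2, Ccl7, Ccl3, Ccl4, Ppbp and Cxcl1, and for Cxcl5, with open symbols.

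Receptors for these ligands were read on the same arrays from a list of 18 leukocyte chemokine receptors. Of these, 11 were tested, with a median difference of 1.02, 6 higher without overlap and 0 lower, against 16.1% and 13.7% of all genes. At an unadjusted limma p under 0.05, 3 receptors were higher, against 3.84% of all genes, and 0 passed after adjustment. The monocyte receptor Ccr2 read -3.56 on W2, -2.31 on W3, -0.54 on K4 and -0.94 on K5, a difference of 2.19 ± 0.50 (limma adjusted p = 0.462). Cxcr3, the receptor of Cxcl9 and Cxcl10, read -2.50, -2.90, -1.11 and -1.69, a difference of 1.30 ± 0.35 (limma adjusted p = 0.582). Both receptors had both arrays labelled SR-A1-/- above both wild type arrays. Ccr1, Ccr3, Ccr4, Ccr8, Cxcr1, Cxcr5 and Xcr1 did not enter the comparison, so the receptors of Ccl8, Ccl11 and Ccl17 have no measured difference here.

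Atypical receptors, which bind chemokines and remove or carry them without moving the cell, had a median difference of 0.16 over 5 genes, all with groups that overlapped. Ackr1, the chemokine carrier of venular endothelium and red cells, differed by 0.26 ± 0.34, Ackr3 by 0.19 ± 0.41 and Ackr2, which degrades CC chemokines, by 0.16 ± 0.35.

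A list of 16 cytokines and transcription factors known to induce chemokine genes had 13 tested members and a median difference of 0.08. Irf8, an interferon-responsive factor of macrophages and dendritic cells, read -0.09 on W2, 0.70 on W3, 1.17 on K4 and 1.47 on K5, a difference of 1.01 ± 0.38 (limma adjusted p = 0.778). It was higher on both arrays labelled SR-A1-/-, and Tnf, a cytokine of macrophages, differed by -0.33 ± 0.32 with groups that overlapped. Ifng, Ifnb1 and Il4 did not enter the comparison.

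Markers of the leukocytes that make or follow chemokines differed in direction from list to list, and counts without overlap stand against 16.1% of all genes higher and 13.7% lower. Of 10 macrophage markers 9 were tested, with a median difference of 1.15, 4 higher without overlap, Fcgr1 (1.87 ± 0.47), Csf1r (1.18 ± 0.33), Adgre1 (1.82 ± 0.68) and Aif1 (1.45 ± 0.55), and 1 lower, Mertk (-0.50 ± 0.33). Their summed linear level was 164 on W2 and 339 on W3, and 262 on K4 and 269 on K5. Itgam, also negative at -0.17 ± 0.55, had groups that overlapped. For T and NK cells 7 of 10 markers were tested, with a median of 0.68 and 4 higher, summed levels of 3.94 and 2.45 against 3.41 and 4.02, and Cd8a, Klrd1 and Ncr1 above background on fewer than 2 arrays. Dendritic cell markers had a median of 1.07 over 5 tested of 6, with Clec9a and Cd209a higher and Xcr1 above background on fewer than 2 arrays. Zbtb46 differed by -0.58 ± 0.42 with groups that overlapped. The summed levels were 1.07 and 13.4 against 6.66 and 10.4, with Itgax the largest term on W3, K4 and K5. B cell markers had a median of -0.27 over 7 tested of 8, with 0 higher and 2 lower, Ms4a1 (-0.90 ± 0.42) and Cd22 (-0.27 ± 0.29), Blk above background on fewer than 2 arrays, and summed levels of 3.04 and 2.93 against 2.45 and 2.58. The neutrophil markers given above had a median of -0.003. Smooth muscle markers had a median of -0.50, skeletal muscle markers -2.02 and adipocyte markers -3.35, the last with a summed level of 28.5 on K5 against 340, 578 and 522 on W2, W3 and K4. The part of any of these cell types in the chemokine differences was not tested.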

How the data were processed

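Signals of the 4 arrays are intensity values made by the authors with Agilent Feature Extraction (12.0.3.1 per the file headers, 10.7 per the submitters' processing notes), background-subtracted and not normalised between arrays. The mean spot signal and the local background, also intensity values per the file headers, served an alternative, as did the deposited value table, which is on a log2 scale. Background flags are 0 or 1 per the file headers, and probe positions are on mm9.

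Each array's log2 signal was centred on its 75th percentile, controls left out, without outlier spots (74 to 102 an array), and repeated spots were averaged. Groups were compared over 22498 genes with lmFit and eBayes of limma 3.58.1 (R 4.3.3, two-sided, Benjamini-Hochberg adjustment). The procedure was tested on simulated data. Other software was pandas 2.3.3, the data.table package (version 1.17.8), matplotlib 3.10.9 and Python 3.11.15. With 2 arrays a group, their number limits the precision.

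The genes, receptor groups, marker lists and alternatives were chosen with earlier results of these data known. Per-array values were given for the 10 brightest tested chemokine genes, the 10 largest differences and those at least 2-fold without overlap, and for 3 genes each of the receptor and inducer lists by smallest p, apart from 1 gene of each list that is not reported here. The remaining chemokine genes given by array were chosen after their values were seen. Where a level not above background was raised, it was set to the higher of the lowest signal called above background on that array and the probe's own. Summed linear levels are sums over a list's tested genes of signal divided by the 75th percentile. Promoters are from the RefSeq table (GRCm38.p6). No alignment was made.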

Additional observations from a re-analysis of the deposited data

Results flagged for a closer look

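Dim probes outside the comparison gave a signal above background on an array labelled SR-A1-/- and on neither wild type array. The second Cxcl10 probe, at base 1230 of AK156907, read -4.10 on K5, while Cxcl13 read -4.59, Cxcl2 -4.79 and Xcl1 -4.82 on K4, as log2 signal minus that of the array's 75th percentile. Each was seen on 1 array of 4, so no comparison was made, and Cxcl5, Cxcl3 and Cxcl17 showed the opposite, with a signal on 1 wild type array alone. The readings of Cxcl13, Cxcl2 and Xcl1 on K4 lay under the lowest signal called above background on W2 (-4.26) and on K5 (-4.49).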

How the results depend on the processing

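No paired analysis was possible because the labels number the arrays 2 and 3 in one group and 4 and 5 in the other, and replicates 1 and 2 are names given here in accession order. The alternatives that kept all arrays numbered 13. They were quantile, median and cyclic loess scaling, normexp, other filters on dim probes and outlier spots kept. The rest were the mean of probes, variance models, deposited values and signal level as a block. Over them 0 chemokine genes passed an adjusted p of 0.05 in limma, where at most 0.0978% of all genes passed. An unadjusted limma p under 0.05 was found for 7 to 9 chemokine genes, all higher. Groups did not overlap for 9 to 14 genes (14 of 38 without a filter). Of these, 9 of 10 were higher with normexp and 13 of 14 without a filter, and all were higher under the other alternatives. The median stayed between 0.49 and 1.11. Under these alternatives the 17 genes chosen by brightness, by largest difference or as 2-fold without overlap kept their sign, apart from Cxcl12 (0.24 with the mean of its probes). Cxcl10 was not measured under the filter on all 4 arrays. Signs of the other tested genes are not given for these alternatives, and the median of the CCR2 ligands turned to -0.16 with normexp. Leaving out each array in turn gave 0 to 11 genes past an adjusted p of 0.05, 5 to 14 at an unadjusted p under 0.05, 16 to 21 whose groups did not overlap (13 to 19 higher and 1 to 8 lower), as fewer arrays allow, and a median of 0.16 to 1.81. The 11 were found without W3, where 1.65% of all genes passed, and 2 without W2, where 1.16% passed, with Ccl12 and Cxcl1 in both, Cxcl1 with opposite signs. Without W2 the sign turned for 8 of the 27 genes, among them Ccl2 (-1.88), Ccl7 (-2.10), Cxcl1 (-2.36), Ccl3 (-0.87) and Ccl4 (-0.87). Signs also turned in 1 or more of these fits for Ccl25, Cx3cl1 and Ppbp, and for Ccl9 (-0.0148 to 2.34), Cxcl14 (-0.0119 to 4.21), Cxcl11 (-0.63 to 0.14), Ccl21a (-0.29 to 0.98), Ccl27a (-0.24 to 0.39) and Cxcl12 (-0.38 to 0.13). The cause was not tested. For the alternatives and the fits with an array left out, no share of all genes is given beside the counts at an unadjusted p or of groups that did not overlap. Those counts therefore do not show whether chemokine genes differed from other genes. Without Cxcl11, an alternative chosen after its values were seen, 0 genes passed the adjusted test and the median was 1.03. An unadjusted limma p under 0.05 was then found for 8 genes, and groups did not overlap for 10.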
